A study of Homo sapiens with 38 samples.

Results

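The 10 genes described here are HLA-C, HLA-E, HLA-F, B2M, TAP1, TAP2, TAPBP, PSMB8, PSMB9 and NLRC5. They were chosen by name as parts of MHC class I antigen presentation, and every probe set that names one of them was taken, 24 of the 54675 on the array. Each of these probe sets named a single gene. The array measured 19775 genes by such probe sets. The human arrays covered A375, a melanoma cell line, called parental here, and 16R6-4, a clone derived from A375 and selected for resistance to GSK436. The resistant side of every comparison is therefore 1 clone. GSK436 (GSK2118436, dabrafenib) inhibits RAF kinases, and GSK212 (GSK1120212, trametinib) inhibits MEK, the kinase that RAF activates. Exposure lasted 24 h in both lines. Cells received GSK436 alone (0.1 or 1 µM), GSK212 alone (10 or 30 nM), 10 nM GSK212 with 0.1 µM GSK436 (the lower combination), 10 nM GSK212 with 1 µM GSK436 (the higher combination), or DMSO, the solvent. Resistant cells gave 3 arrays for each treatment and 2 for DMSO. Of parental cells there were 2 arrays for 30 nM GSK212 and for either dose of GSK436, and 3 for each other treatment and for DMSO. Whether the replicates were separate cultures is not said in the labels, so each p measures the spread between these samples, which may be technical.

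MHC class I molecules show peptides from inside the cell to cytotoxic T cells. A heavy chain such as HLA-C pairs with beta-2 microglobulin (B2M), peptides cut by the proteasome are pumped into the endoplasmic reticulum by the TAP1 and TAP2 transporter, and tapasin (TAPBP) helps load them. NLRC5 is a transactivator that acts at the promoters of class I genes, and interferon raises most genes of the pathway. Tumours, melanoma among them, can present fewer peptides when parts of this machinery are low.

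Values are MAS5 signal intensities on a linear scale. Changes are log2 fold changes with their standard error (SE) from 1 limma fit over 47087 probe sets, on log2 of signal plus 2.8. A gene was called where p, adjusted by Benjamini and Hochberg over all probe sets tested, was under 0.05 and the log2 fold change was at least 1 in size. Each gene is counted by its brightest probe set, and percentages of all genes called refer to 18002 genes. All treatments of a line were set against the same DMSO arrays, so their changes are not independent of each other. Summed over the 12 treatment comparisons, 20 of 120 tests of these genes were called, 18 of them higher and 2 lower. Over all genes 8.11% of such tests were called, 5.24% higher and 2.87% lower. With each array centred on its median, which lowers all treated groups relative to DMSO, 9 were called, 4 of them higher (NLRC5 in resistant cells with GSK212) and 5 lower.

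RNA quality differed between groups. The ratio of 3' to 5' signal of the actin control, which is high where RNA or its copies are short, lay between 3.72 and 45.0 and was above 20 on 15 of the 38 arrays. Both arrays with 0.1 µM GSK436 (37.2 and 37.5) and both with 1 µM GSK436 (23.3 and 32.6) in parental cells exceeded 20, against 4.59, 6.65 and 12.05 in parental DMSO. In these 2 comparisons the ratio and the treatment cannot be told apart. In resistant cells the ratio was 13.7 to 27.4 with 10 nM GSK212, 4.54 to 45.0 with 30 nM GSK212, 11.0 to 33.3 with the lower and 3.72 to 12.1 with the higher combination, against 3.95 and 6.98 in DMSO. With GSK436 alone it was 4.65 to 37.4 at 0.1 µM and 4.25 to 20.5 at 1 µM. Its part in the results below was not tested beyond the settings given with them.

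NLRC5 was the member called most often. It rose in all 6 treatments of parental cells and in the 4 treatments of resistant cells that contained GSK212, and it was not called with either dose of GSK436 alone in resistant cells. Only 1 probe set names it. In parental cells NLRC5 signal was 56.5, 51.5 and 75.0 with DMSO, 212.7 and 134.7 with 0.1 µM GSK436, and 137.2 and 188.4 with 1 µM GSK436. It was 164.7, 186.8 and 111.9 with 10 nM GSK212, 105.3 and 180.1 with 30 nM GSK212, 193.3, 108.7 and 123.7 with the lower combination, and 183.7, 153.2 and 174.4 with the higher combination. Every treated parental array lay above every parental DMSO array. The 9 treated parental arrays with an actin ratio above 20 had a median of 183.7 (134.7 to 212.7), and the 6 others 117.8 (105.3 to 164.7). The log2 changes were 1.45 ± 0.36 (SE, limma adjusted p = 0.0048), 1.38 ± 0.36 (0.0062), 1.29 ± 0.32 (0.0049), 1.16 ± 0.36 (0.0357), 1.16 ± 0.32 (0.0138) and 1.45 ± 0.32 (0.0012) in the order just given.

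In resistant cells NLRC5 signal was 68.0 and 30.5 with DMSO, 41.4, 64.8 and 108.6 with 0.1 µM GSK436, and 78.5, 60.0 and 75.3 with 1 µM GSK436. With GSK212 it was 199.9, 157.2 and 167.1 at 10 nM and 324.5, 142.0 and 154.6 at 30 nM, and 202.6, 189.5 and 215.5 with the lower and 185.7, 195.4 and 222.8 with the higher combination. The groups that received GSK212 did not overlap with DMSO or with GSK436 alone, whereas both doses of GSK436 alone overlapped with DMSO. The log2 changes against DMSO were 0.51 ± 0.36 and 0.60 ± 0.36 for the lower and higher dose of GSK436, neither of them called. They were 1.86 ± 0.36 (limma adjusted p = 0.0017), 2.01 ± 0.36 (0.00042), 2.08 ± 0.36 (0.00024) and 2.07 ± 0.36 (0.00016) for 10 nM GSK212, 30 nM GSK212 and the lower and higher combination.

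**Figure D1:**
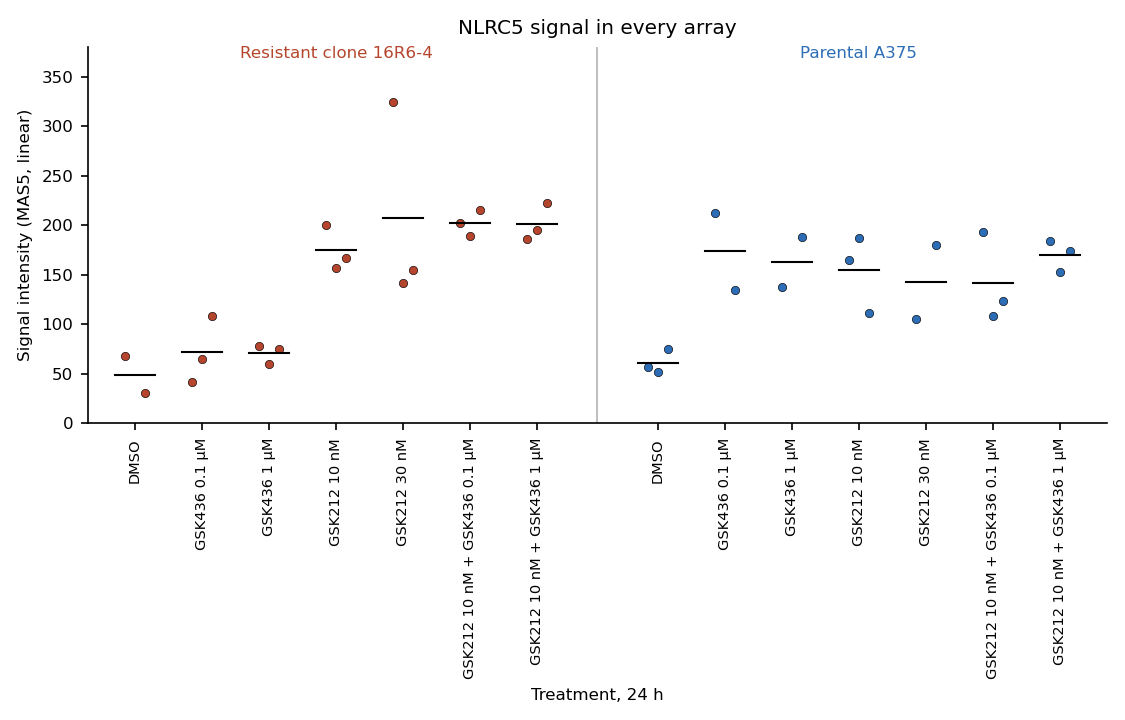
NLRC5 signal intensity (linear scale) of every array, by treatment in resistant and parental cells, with points for arrays and bars for group means. Resistant cells with DMSO or GSK436 alone lie between 30.5 and 108.6, and all resistant arrays with GSK212 lie at 142.0 or above.

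The difference between the lines in the NLRC5 change was not called at any treatment. It was −0.94 ± 0.51 at 0.1 µM GSK436 (95% interval −1.99 to 0.12) and −0.78 ± 0.51 at 1 µM GSK436 (−1.83 to 0.28), and 0.57 to 0.92 at the 4 treatments with GSK212. NLRC5 was called with GSK436 alone in parental but not in resistant cells, yet the difference between the lines was tested and not called. Within resistant cells the test against GSK436 alone was direct. NLRC5 was 1.57 ± 0.32 higher with the lower combination than with 0.1 µM GSK436 (adjusted p = 0.0017) and 1.47 ± 0.32 higher with the higher combination than with 1 µM GSK436 (adjusted p = 0.0028). Ranked by group mean on the log2 scale, the 4 resistant groups with GSK212 came first, the 6 treated parental groups next, and GSK436 alone in resistant cells and both DMSO groups last. Neighbours in this order overlapped in 12 of 13 cases, and the gap lay between the lower combination in parental cells (108.7 to 193.3) and 1 µM GSK436 in resistant cells (60.0 to 78.5). Across this gap, 0.1 µM GSK436 in resistant cells (41.4 to 108.6) still overlapped with 30 nM GSK212 in parental cells (105.3 to 180.1).

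Settings and single arrays bore on these calls. With each array centred on its median, the call was lost in all 6 parental treatments, and over all settings the lowest change was 0.64 to 0.99 in parental treatments and 1.27 to 1.61 in the resistant treatments with GSK212. The actin ratio as a covariate ended 5 of the 6 parental calls, the exception being the lower combination. The call at the lower combination was lost with quantile normalization and without the arrays with an actin ratio above 20. The parental call at 30 nM GSK212 was lost in both of these settings too, and with only the groups compared. In resistant cells 2 calls were lost in 1 setting each, that at 10 nM GSK212 without the arrays with an actin ratio above 20 and that at 30 nM GSK212 with only the groups compared. Without the second DMSO array of resistant cells, which read 30.5, the NLRC5 change was 1.32 at 10 nM GSK212, 1.46 at 30 nM GSK212 and 1.53 with the lower combination, each no longer called, and 1.52 with the higher combination, still called. In parental cells the call at 0.1 µM GSK436 was lost without the array of replicate number 2 (1.13), and that at 1 µM GSK436 without number 3 (1.15). The call at 30 nM GSK212 was lost without DMSO number 1 (1.11), DMSO number 2 (1.05) or number 3 of the treatment (0.78), and that of the lower combination without DMSO number 1 (1.11), DMSO number 2 (1.05) or number 1 of the treatment (0.91).

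All 10 members are set out by treatment in the heat map of log2 changes. In parental cells 3 of 10 members were called with 0.1 µM GSK436 (TAPBP and NLRC5 higher, TAP2 lower), where 16.5% of all genes were called. The same 3 of 10 were called with 1 µM GSK436, against 18.2% of all genes. With 10 nM GSK212 the count was 2 of 10 (TAPBP and NLRC5, 11.2% of all genes), with 30 nM GSK212 1 of 10 (NLRC5, 9.05%), with the lower combination 1 of 10 (NLRC5, 9.9%) and with the higher combination 2 of 10 (TAPBP and NLRC5, 16%). These shares lay near those of all genes. At an adjusted p under 0.05 and any fold, the members counted 5 with 0.1 µM GSK436 (24.3% of all genes), 4 with 1 µM GSK436 (26.4%), 5 with 10 nM GSK212 (19.1%), 3 with 30 nM GSK212 (14.2%), 4 with the lower (17%) and 4 with the higher combination (26%). HLA-C was among them in all 6 treatments.

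In resistant cells 0 of 10 members were called in limma with 0.1 µM GSK436, where 0.00555% of all genes were called, and 0 of 10 with 1 µM GSK436 (0.0722%). At an unadjusted p under 0.05 the count was 0 at both doses, against 4.35% and 3.12% of all genes at that p. With 10 nM GSK212 1 of 10 was called (NLRC5, 2.42% of all genes), with 30 nM GSK212 1 of 10 (NLRC5, 3.75%) and with the lower combination 2 of 10 (TAPBP and NLRC5, 4.28%). The higher combination had 4 of 10, HLA-C, TAPBP, NLRC5 and PSMB9, all of them higher, against 5.94% of all genes. At any fold the counts were 0 with 0.1 µM GSK436 (0.00555% of all genes), 0 with 1 µM GSK436 (0.0778%), 2 with 10 nM GSK212 (3.49%), 2 with 30 nM GSK212 (5.69%), 4 with the lower (6.66%) and 5 with the higher combination (9.41%). The median log2 change of the 10 members was 0.67 with the higher combination in resistant cells, against 0.22 over all genes tested, and −0.03 with 1 µM GSK436 alone, against 0.05 over all genes.

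**Figure D2:**
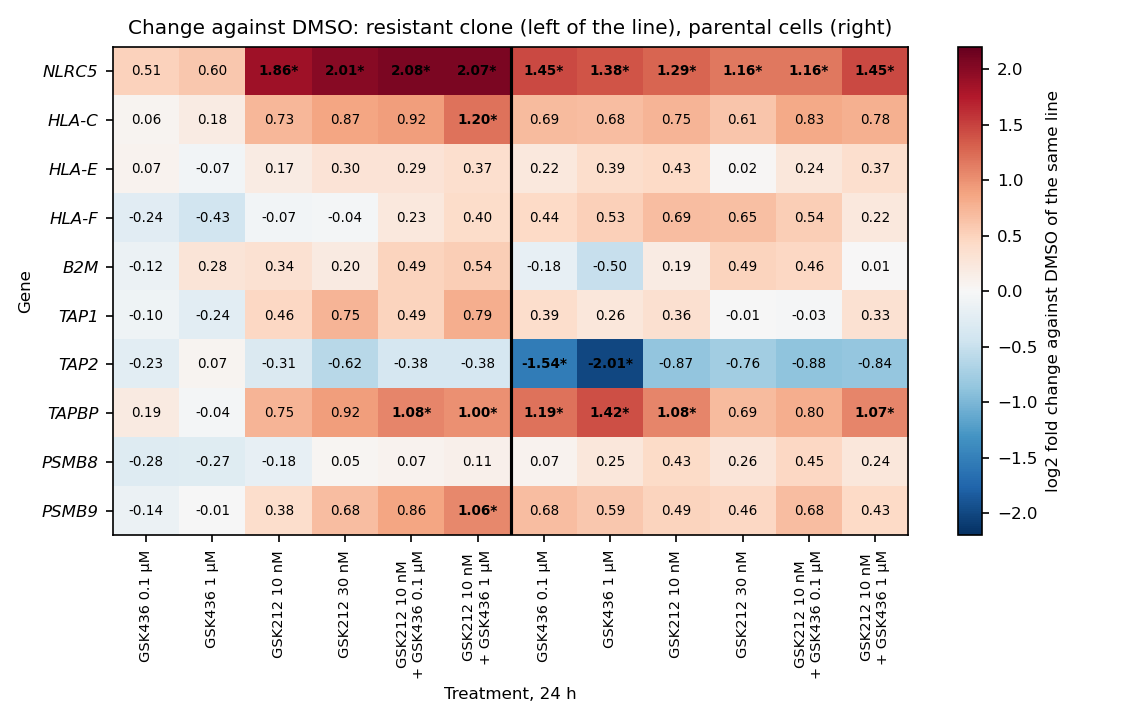
Log2 fold change against DMSO of the same line for the 10 genes (rows) and 6 treatments (columns), resistant cells left of the line and parental cells right of it, with an asterisk where the gene was called. NLRC5 carries 10 of the 20 asterisks, from 1.16 to 2.08, and the 2 lower calls are TAP2 in parental cells with GSK436.

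Among the heavy chains, HLA-C, a classical class I gene, moved most. In parental cells its signal was 906.9, 980.9 and 904.0 with DMSO. It was 1276.2 and 1764.1 with 0.1 µM GSK436, 1594.1 and 1387.8 with 1 µM GSK436, 1468.2, 1739.2 and 1494.5 with 10 nM GSK212, and 1447.7 and 1403.2 with 30 nM GSK212. With the combinations it was 1567.0, 1689.4 and 1704.1 at the lower and 1517.0, 1628.0 and 1652.6 at the higher. No treated parental array overlapped with DMSO. The log2 changes were 0.61 to 0.83 in the 6 treatments, with limma adjusted p from 1.67e-05 to 0.0041, and all were under the fold threshold for a call.

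In resistant cells HLA-C read 458.3 and 459.2 with DMSO, 501.4, 461.4 and 476.1 with 0.1 µM GSK436, and 505.8, 561.4 and 498.0 with 1 µM GSK436. It read 724.6, 764.4 and 802.6 with 10 nM GSK212, 875.8, 849.3 and 800.3 with 30 nM GSK212, 801.0, 929.7 and 882.4 with the lower combination, and 1254.3, 936.8 and 1008.7 with the higher combination. As with NLRC5, the arrays with GSK212 lay above all those without it. The log2 change was 0.06 ± 0.15 and 0.18 ± 0.15 with the 2 doses of GSK436 alone. It was 0.73, 0.87 and 0.92 (SE 0.15 each) with 10 nM GSK212, 30 nM GSK212 and the lower combination, where limma adjusted p was 0.0025, 0.00016 and 6.55e-05, and 1.20 ± 0.15 with the higher combination (adjusted p = 3.62e-07). The call with the higher combination held without each array in turn (1.08 to 1.29) and was lost with each array centred on its median (0.75).

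HLA-C was also the only member called between the untreated lines. With DMSO it read 458.3 and 459.2 in resistant cells, against 906.9, 980.9 and 904.0 in parental cells, a log2 difference of −1.01 ± 0.15 (limma adjusted p = 1.13e-05). This made 1 of 10 members called between the lines, against 3.39% of all genes. The call was lost without the second parental DMSO array (−0.98, under the fold threshold), with quantile normalization and with each array centred on its median. Of the other members TAP1 (−0.78 ± 0.23, adjusted p = 0.053) and PSMB9 (−0.72 ± 0.22, adjusted p = 0.0725) came nearest. With the higher combination HLA-C in resistant cells (936.8 to 1254.3) overlapped with parental DMSO, and all 15 treated parental arrays lay above the highest resistant array.

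Of the 4 probe sets that name HLA-C and the 6 that name HLA-E or HLA-F, 8 are of the type that can also bind related transcripts (suffix x), so signal from other HLA genes cannot be separated from theirs. The group means of the other HLA-C probe sets followed those of the one used (r of 0.99, 0.99 and 0.83 over 14 groups, a description). One of them, 216526_x_at, was called with both combinations in resistant cells (1.10 ± 0.20 at the lower and 1.34 ± 0.20 at the higher).

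HLA-E and HLA-F, which encode nonclassical class I heavy chains, were called in no treatment. HLA-E ran from 353.3 to 705.9 over all arrays and passed the p threshold once, with 10 nM GSK212 in parental cells (673.5, 705.9 and 565.4, against 471.8, 427.0 and 542.6 with DMSO), at 0.43 ± 0.15 (limma adjusted p = 0.0487). HLA-F read 353.0, 431.2 and 392.3 with 10 nM GSK212 in parental cells, against 222.6, 212.8 and 299.2 with DMSO, at 0.69 ± 0.19 (adjusted p = 0.0119). With 30 nM GSK212 HLA-F read 392.8 and 372.0, at 0.65 ± 0.21 (adjusted p = 0.047). In both groups HLA-F did not overlap with DMSO. The dimmest HLA-F probe set, 221978_at, lay under the pooled median of all values (34.88) on all but 3 arrays.

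B2M, the light chain of every class I molecule, was among the brightest genes, above 99.3% of the genes tested, and was called in no treatment by its brightest probe set. That probe set read 3962.4 to 12639.3 over all arrays, and its log2 changes ran from −0.50 to 0.54. With each array centred on its median it was called lower with 1 µM GSK436 in parental cells (−1.22). A second B2M probe set, 216231_s_at, was called lower with 1 µM GSK436 in parental cells, where it read 2344.2 and 1218.8, against 6906.6, 8193.8 and 3245.8 with DMSO (−1.75 ± 0.58, adjusted p = 0.0309). Its signal moved with the actin ratio. On the 15 arrays with a ratio above 20 it had a median of 3037 (1092.5 to 6017.9), against 7382 (2752.4 to 12224.9) on the 23 others, while the brightest probe set had 9121 and 9718. The third, 232311_at, read 23.9 to 175.5.

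The transporter genes did not move together. TAP1 was called in no treatment against DMSO. In resistant cells it read 212.6, 234.7 and 198.4 with the higher combination, against 115.2 and 130.5 with DMSO, without overlap, at 0.79 ± 0.23 (limma adjusted p = 0.029), which is under the fold threshold. Against 1 µM GSK436 alone, where TAP1 read 135.1, 109.4 and 75.0, the higher combination was 1.03 ± 0.20 higher (adjusted p = 8.29e-04), a call that was lost without replicate number 3 of 1 µM GSK436 (0.81) or number 2 of the combination (0.97). In parental cells TAP1 read 187.9 to 303.4 over the treatments, against 184.8 to 267.1 with DMSO, and only 0.1 µM GSK436 (286.7 and 275.1) did not overlap with DMSO.

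TAP2 gave the 2 lower calls. Its brightest probe set, 225973_at, read 88.3 and 60.6 with 0.1 µM GSK436 in parental cells, against 217.1, 263.9 and 180.3 with DMSO, at −1.54 ± 0.34 (limma adjusted p = 0.0017). With 1 µM GSK436 it read 116.1 and 22.4, at −2.01 ± 0.34 (adjusted p = 5.12e-05). The reading of 22.4 is the lowest of this probe set, and without it (replicate number 3) the change was −0.89 and no longer called. Without number 3 of 0.1 µM GSK436 it was −1.28, no longer called either. The other 4 parental treatments read 90.2 to 139.4, all below DMSO, with log2 changes of −0.76 to −0.88 that were not called. With each array centred on its median both combinations were called too (−1.35 and −1.54). The 6 treated parental arrays with an actin ratio of 20 or less, none of them with GSK436 alone, read 90.2 to 135.5, and the 9 others 22.4 to 139.4.

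A second TAP2 probe set, 204769_s_at, did not show this. It read 179.8 and 95.5 with 0.1 µM GSK436 and 134.2 and 117.4 with 1 µM GSK436 in parental cells, against 65.0, 91.6 and 123.2 with DMSO. Its changes of 0.52 ± 0.45 and 0.46 ± 0.45 were not called, and its group means followed those of the first with r of 0.13 over 14 groups. The lower TAP2 signal was therefore called on 1 probe set and not seen on the next brightest. The other 2 probe sets, 204770_at and 208428_at, reached at most 63.5 and 45.4, and 208428_at did not pass the filter on low values. 204770_at was above the pooled median on 7 arrays, and its group means followed those of the first with r of 0.75. In parental cells it had means of 28.6 with DMSO, 12.1 with 0.1 µM and 28.7 with 1 µM GSK436. The means were 15.2 to 28.2 in the other parental treatments, and none of these changes was called.

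**Figure D3:**
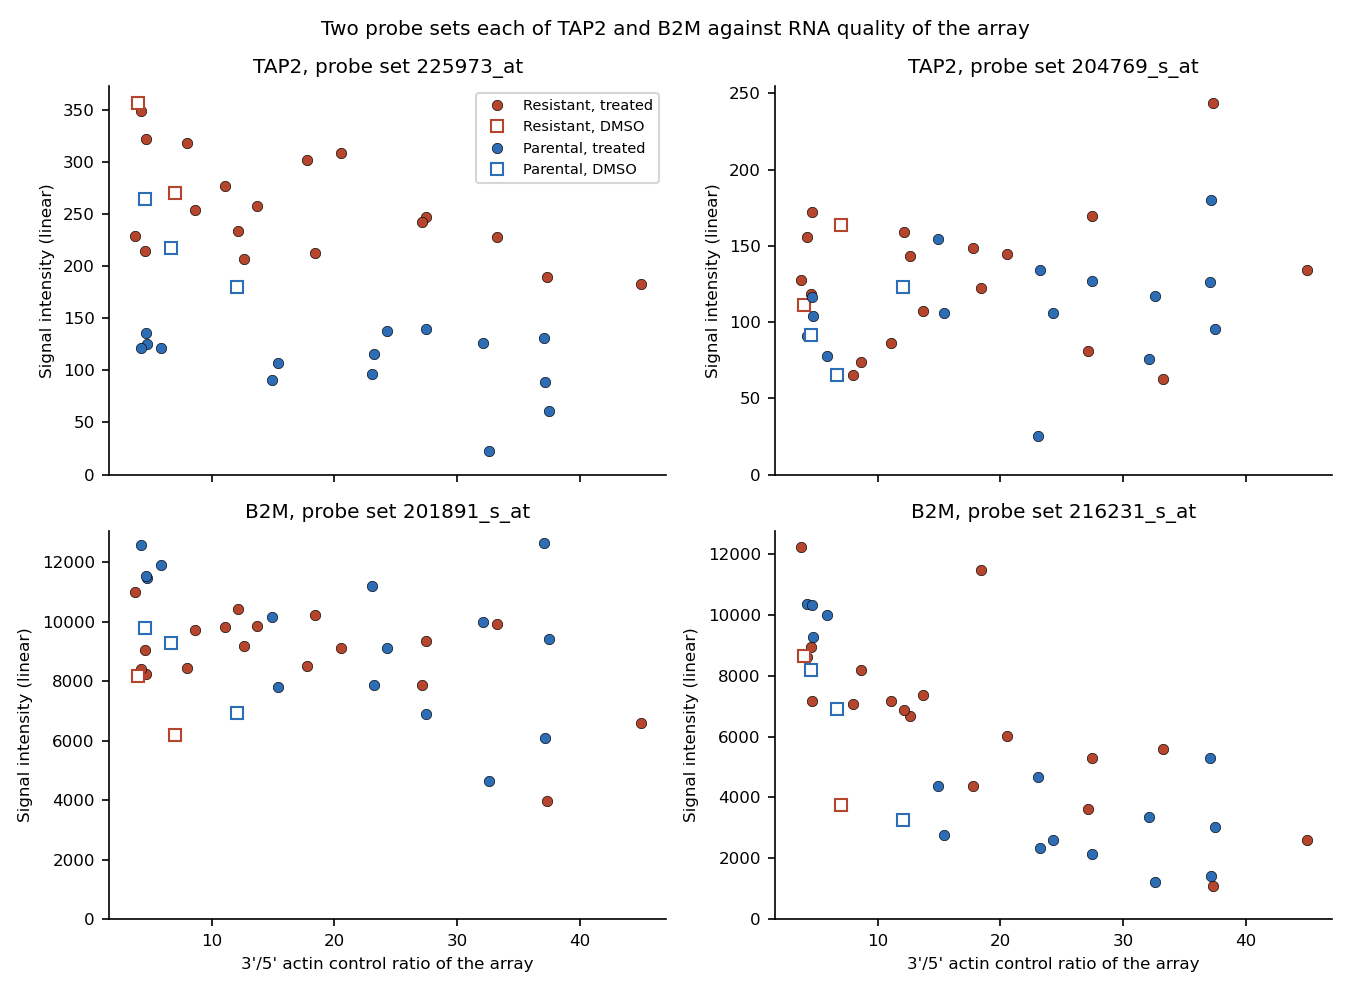
Signal intensity (linear) of 2 probe sets each of TAP2 and B2M on every array against the 3' to 5' actin ratio of that array, with filled points for treated and open squares for DMSO arrays. B2M 216231_s_at lies at 6017.9 or below on every array with a ratio above 20, and TAP2 225973_at lies below DMSO on all treated parental arrays at low and at high ratios.

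In resistant cells TAP2 225973_at read 269.7 and 356.0 with DMSO and 182.4 to 348.8 over the treatments, with no call. The difference between the lines in the TAP2 change at 1 µM GSK436 was 2.08 ± 0.48 (limma adjusted p = 0.0066). TAPBP differed the other way at this dose (−1.46 ± 0.41, adjusted p = 0.0257). These 2 of 10 members were called for a difference between lines at 1 µM GSK436, against 8.95% of all genes. At the other treatments 0 of 10 were called in limma, where 3.28% of all genes were called for 0.1 µM GSK436, 1.45% for 10 nM GSK212, 0.644% for 30 nM GSK212, 0.617% for the lower and 0.878% for the higher combination. At an unadjusted p under 0.05 the members counted 5 for 0.1 µM GSK436 (17.6% of all genes at that p), 2 for 10 nM GSK212 (11.6%), 2 for 30 nM GSK212 (7.6%), 0 for the lower (7.69%) and 2 for the higher combination (12%). With the actin ratio as a covariate both calls held, TAP2 at 1.95 and TAPBP at −1.34. This is no test of the ratio's part, as ratio and treatment cannot be told apart in parental cells at this dose. The TAP2 difference was lost without the array that read 22.4 (0.96) or without the first resistant DMSO array (1.88), and also when the other groups were left out of the fit. On the second TAP2 probe set, 204769_s_at, the means went the other way, and the difference was not called. They were 93.3 with DMSO and 125.8 with 1 µM GSK436 in parental cells, and 137.3 and 121.7 in resistant cells. The TAPBP difference was lost with each array centred on its median (−0.99) and without any of 6 of the 10 arrays involved (−1.19 to −1.42): the first and second parental DMSO arrays, parental 1 µM GSK436 number 3, the first resistant DMSO array, and resistant 1 µM GSK436 numbers 1 and 3.

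TAPBP (tapasin, which bridges the transporter and the empty class I molecule) was called in 4 parental and 2 resistant treatments. In parental cells it read 162.8, 161.9 and 226.2 with DMSO, 432.9 and 405.1 with 0.1 µM GSK436, 452.3 and 533.1 with 1 µM GSK436, and 478.9, 447.3 and 269.6 with 10 nM GSK212. It read 272.6 and 319.6 with 30 nM GSK212, 373.7, 331.6 and 260.2 with the lower combination, and 416.0, 314.1 and 437.0 with the higher combination. All treated parental arrays lay above DMSO. Those with an actin ratio above 20 had a median of 432.9, and those at or below it 293.4. The log2 changes were 1.19 ± 0.29 (limma adjusted p = 0.0038), 1.42 ± 0.29 (5.12e-04), 1.08 ± 0.26 (0.0032) and 1.07 ± 0.26 (0.0028) in the 4 treatments called, namely both doses of GSK436, 10 nM GSK212 and the higher combination. They were 0.69 and 0.80 in the other 2.

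In resistant cells TAPBP read 145.4 and 97.9 with DMSO, 181.2, 85.9 and 164.3 with 0.1 µM GSK436, and 106.2, 135.3 and 108.5 with 1 µM GSK436. It read 170.5, 237.7 and 205.4 with 10 nM GSK212, 328.1, 213.2 and 171.7 with 30 nM GSK212, 221.8, 329.6 and 229.0 with the lower combination, and 280.2, 216.6 and 233.8 with the higher combination. GSK436 alone overlapped with DMSO, and no group with GSK212 did. TAPBP rose by 1.08 ± 0.29 (limma adjusted p = 0.0233) with the lower and by 1.00 ± 0.29 (adjusted p = 0.0306) with the higher combination. A dimmer TAPBP probe set, 210294_at, was called with both doses of GSK436 and with 10 nM GSK212 in parental cells (by 2.19 or more, from low signals of 3.52 to 17.77 with DMSO). With the higher combination in parental cells, where the brightest probe set was called, it read 5.34 to 9.24 and was not called (−0.02 ± 0.70). The remaining probe set, 1555565_s_at, was not called.

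Calls of TAPBP often depended on the setting. The lowest changes over all settings were 0.37 to 0.79 in the 4 parental and 0.55 and 0.64 in the 2 resistant treatments. Centring each array on its median ended all 6 calls. The actin ratio as a covariate ended every one but that at 1 µM GSK436 in parental cells. Without the arrays with a ratio above 20, the calls at parental 10 nM GSK212, at the parental higher combination and at the resistant lower combination were lost. Quantile normalization ended both resistant calls. In parental cells that at 0.1 µM GSK436 was lost without number 2 of the treatment (1.15, adjusted p = 0.0545). That at 10 nM GSK212 was lost without the second DMSO array (1.00), or number 1 (0.93) or 2 (0.98) of the treatment. That of the higher combination was lost without the first (1.00) or second (0.99) DMSO array or number 3 of the treatment (0.98). In resistant cells the call with the lower combination was lost without the second DMSO array (0.80) or number 2 of the treatment (0.90), and with the higher combination without the second DMSO array (0.72) or number 1 (0.90) or 3 (1.03, adjusted p = 0.0673) of the treatment.

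Of the immunoproteasome subunits, which replace constitutive ones and alter the peptides made, PSMB9 moved and PSMB8 did not pass the test. PSMB9 read 559.1, 452.2 and 400.5 with the higher combination in resistant cells, against 239.6 and 207.3 with DMSO, at 1.06 ± 0.22 (limma adjusted p = 0.0014). The groups did not overlap. The call was lost without the second DMSO array (0.95) or number 1 of the treatment (0.92), with quantile normalization and with each array centred on its median (0.60). With the lower combination it read 308.1, 609.1 and 360.5, at 0.86 ± 0.22 (adjusted p = 0.0148), under the fold threshold. In parental cells PSMB9 read 443.2 to 663.9 over the treatments, all above the 338.8 to 396.5 of DMSO, and the log2 changes were 0.43 to 0.68 with 2 of 6 past the p threshold. PSMB8 read 261.6 to 521.0 over all arrays, and its log2 changes ran from −0.28 to 0.45.

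**Figure D4:**
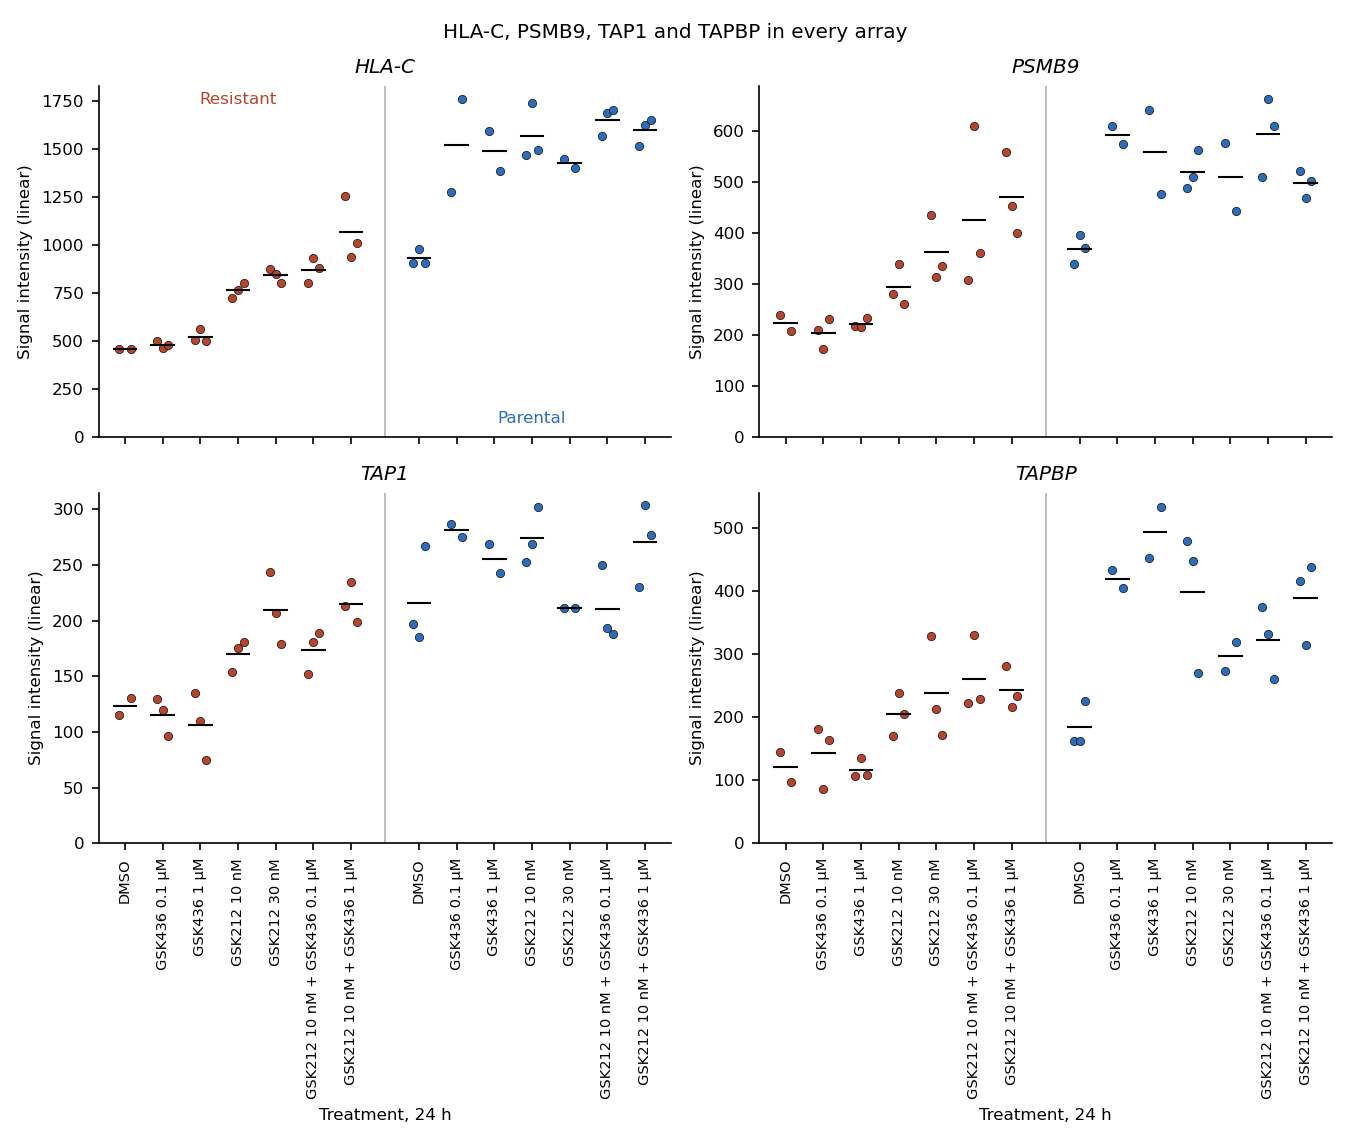
Signal intensity (linear scale) of HLA-C, PSMB9, TAP1 and TAPBP on every array, by treatment in resistant and parental cells, with points for arrays and bars for group means. For HLA-C all resistant arrays with GSK212 (724.6 to 1254.3) lie above those without it (458.3 to 561.4).

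The combinations were compared with each of their drugs alone. In resistant cells the higher combination differed from 1 µM GSK436 by 5 of 10 members, all higher, against 5.08% of all genes. These were HLA-C (1.02 ± 0.13), TAP1 (1.03 ± 0.20), TAPBP (1.04 ± 0.26), NLRC5 (1.47 ± 0.32) and PSMB9 (1.07 ± 0.20), with limma adjusted p from 1.00e-06 to 0.0092. HLA-F was 0.83 ± 0.19 higher (adjusted p = 0.0043), under the fold threshold. Of these 5, only NLRC5 kept its call without each array in turn. HLA-C fell just short at 0.90 to 1.00 and TAPBP at 0.94 to 1.00 without numbers 1 or 3 of 1 µM GSK436 or number 1 of the combination, and PSMB9 did so at 0.94 without number 1 of the combination. With each array centred on its median, all of these calls but that of NLRC5 were lost. Quantile normalization ended those of TAP1 and TAPBP, and a pseudocount at the 25th percentile ended that of TAP1. Without the arrays with an actin ratio above 20, those of HLA-C and TAPBP were lost. The lower combination differed from 0.1 µM GSK436 by 1 of 10 members (NLRC5), against 4.29%.

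In the comparison of resistant cells with 10 nM GSK212 alone, 0 of 10 members were called in limma with either combination. All genes were called at 0.00555% for the lower and 0.5% for the higher. At an unadjusted p under 0.05 the members counted 1 for the lower (4.93% of all genes at that p) and 3 for the higher (11.1%). NLRC5 was 0.22 higher (95% interval −0.45 to 0.88) with the lower and 0.20 higher (−0.46 to 0.87) with the higher combination. In parental cells 0 of 10 were called in limma in any of the 4 such comparisons. All genes were called at 0.667% and 0.00555% for the lower combination against GSK436 and GSK212, and at 0.0222% and 0.3% for the higher. At an unadjusted p under 0.05 the members counted 1 and 0 for the lower (21.9% and 6.75% of all genes at that p). For the higher they counted 2 and 1 (8.67% and 10.7%). Between doses of 1 drug 0 of 40 member tests were called, and the log2 differences ran from −0.47 to 0.41. All genes were called at 0.233% for GSK436 and 0% for GSK212 in parental cells and at 0.0944% and 0% in resistant cells. Only GSK212 in parental cells had a member at an unadjusted p under 0.05 (1, against 6.63% of all genes at that p). The other shares of all genes at that p were 9.03% for GSK436 in parental cells, and 8.32% for GSK436 and 4.92% for GSK212 in resistant cells.

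Promoter sequence was examined because several members varied alike over the 14 groups. The group means of HLA-C, TAP1, TAPBP and PSMB9 correlated with each other with r of 0.92 to 0.97. HLA-E correlated with them with r of 0.89 to 0.95, HLA-F with r of 0.80 to 0.90, and NLRC5 with r of 0.65 to 0.74. TAP2 by its brightest probe set had r of −0.79 to −0.91, B2M 0.15 to 0.39 and PSMB8 0.31 to 0.44. Genes outside the members were as alike, with r up to 0.96 for TAP1 and 0.97 for HLA-E. All of this is a description over 14 means that share arrays and DMSO controls. RefSeq (GRCh38.p14) gave 10 windows for 8 of the 10 genes, each of 250 bases before to 50 after a gene start. One window each of HLA-C, TAPBP, TAP1, PSMB9 and TAP2 is printed, TAP2 as the member with negative r. TAP1 has 2 windows, and the printed one is that next to PSMB9. Capitals mark matches on either strand to the core of the interferon-stimulated response element (ISRE core: GAAA, any 2 bases, GAAA), the gamma-activated site (GAS: TTC, any 3 bases, GAA) and the Y box (CCAAT, or ATTGG on the other strand).
HLA-C promoter, chr6:31272043-31272342 (minus strand): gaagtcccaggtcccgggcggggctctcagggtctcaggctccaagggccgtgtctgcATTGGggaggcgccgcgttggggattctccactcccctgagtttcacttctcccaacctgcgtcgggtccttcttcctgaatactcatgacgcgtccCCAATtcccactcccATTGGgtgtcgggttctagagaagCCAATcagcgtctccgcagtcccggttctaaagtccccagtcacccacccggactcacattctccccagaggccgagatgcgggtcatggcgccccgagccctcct
TAPBP promoter, chr6:33314029-33314328 (minus strand): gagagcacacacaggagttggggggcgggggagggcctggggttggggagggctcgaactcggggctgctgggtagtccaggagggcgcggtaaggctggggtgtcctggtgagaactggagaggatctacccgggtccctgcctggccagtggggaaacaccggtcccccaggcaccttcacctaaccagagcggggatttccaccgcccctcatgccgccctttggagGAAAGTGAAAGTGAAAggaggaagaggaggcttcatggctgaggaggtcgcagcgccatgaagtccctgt
TAP1 promoter, chr6:32853655-32853954 (minus strand): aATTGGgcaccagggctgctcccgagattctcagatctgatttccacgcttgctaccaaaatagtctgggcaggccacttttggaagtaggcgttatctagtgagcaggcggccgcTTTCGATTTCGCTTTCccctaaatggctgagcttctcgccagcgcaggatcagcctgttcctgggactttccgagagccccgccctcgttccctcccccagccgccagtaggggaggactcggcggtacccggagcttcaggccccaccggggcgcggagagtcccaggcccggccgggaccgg
PSMB9 promoter, chr6:32853942-32854241 (plus strand): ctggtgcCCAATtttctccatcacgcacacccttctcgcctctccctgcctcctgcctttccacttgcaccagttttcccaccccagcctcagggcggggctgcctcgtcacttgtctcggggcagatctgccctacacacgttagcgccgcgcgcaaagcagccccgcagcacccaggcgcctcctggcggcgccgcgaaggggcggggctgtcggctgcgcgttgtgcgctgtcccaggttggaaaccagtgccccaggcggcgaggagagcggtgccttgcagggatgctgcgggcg
TAP2 promoter, chr6:32838690-32838989 (minus strand): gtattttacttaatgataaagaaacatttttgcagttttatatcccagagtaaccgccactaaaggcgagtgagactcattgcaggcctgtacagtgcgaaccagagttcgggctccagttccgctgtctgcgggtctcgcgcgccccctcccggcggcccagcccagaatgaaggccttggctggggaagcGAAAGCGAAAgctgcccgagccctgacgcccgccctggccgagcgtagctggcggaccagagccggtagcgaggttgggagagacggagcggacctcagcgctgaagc

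The ISRE core matched in 6 of the 10 windows, against 3.57% of 35116 promoters of the same length. It was found in TAPBP as 2 overlapping copies from 20 and 14 bases before the start, in TAP1 as 2 overlapping copies on the opposite strand from 134 and 128 bases before the start, and once in TAP2, 58 bases before the start. B2M, HLA-F and 1 window of PSMB8 held it too, and the HLA-C window did not. CCAAT matched in 5 of 10 windows, against 34.6% of all promoters, with 4 matches in HLA-C. The GAS matched in 2 of 10, against 7.66%, 1 window of PSMB8 and the TAP1 window not printed. TAP1 and PSMB9 are neighbours that point away from each other, and their printed windows share 13 bases, which hold the CCAAT match of both. A match is a run of letters and shows no binding.

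Genes around the class I pathway were counted in the same way. Of the interferon signalling list, 12 of 14 genes were tested, and IRF9, a subunit of the factor that answers type I interferon, stood out. IRF9 had group means of 262.5 to 345.5 over the parental treatments, against 62.9 with DMSO, and was called in all 6 (log2 changes of 2.03 to 2.43). In resistant cells IRF9 had means of 117.4 to 172.0 in the 4 treatments with GSK212, against 35.0 with DMSO, and was called in these (1.69 to 2.19). With GSK436 alone it had 59.1 and 55.1 and was not called. Unlike that of NLRC5, the IRF9 difference between the lines was called, at −1.49 ± 0.41 for 0.1 µM GSK436 (limma adjusted p = 0.0484) and −1.86 ± 0.41 for 1 µM GSK436 (adjusted p = 0.0043).

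IFNGR2, a chain of the interferon gamma receptor, was called lower in 5 of 6 parental treatments (means of 283.9 to 336.8, against 727.5 with DMSO, log2 changes of −1.10 to −1.35) and in none in resistant cells. Its difference between the lines was called at 1 µM GSK436 (1.21 ± 0.29, adjusted p = 0.0083). IRF2, a regulator of interferon-responsive promoters, was called higher in 3 resistant treatments (1.01 to 1.03), and SOCS3, a feedback inhibitor of cytokine signalling, lower with 0.1 µM GSK436 in parental cells (−2.41). IRF1, the receptor chains IFNGR1, IFNAR1 and IFNAR2, the kinases JAK1, JAK2 and TYK2, and SOCS1 were called in no treatment. The list thus had 6 higher and 6 lower calls in 72 parental tests and 7 higher and 0 lower calls in 72 resistant tests. Over all genes 8.42% of parental tests were called higher and 5.05% lower, and 2.06% of resistant tests higher and 0.684% lower. The parental count of higher calls was near that share.

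In the list of peptide trimming and loading genes, 8 of 9 were tested, with 8 higher calls in 48 parental and 3 in 48 resistant tests and none lower, against the 8.42% and 2.06% of all such tests called higher. PSME1, a subunit of the proteasome activator, had means of 1307, 1276 and 1294 with 10 nM GSK212 and the 2 combinations in resistant cells, against 615.7 with DMSO, and was called there (1.05, 1.04 and 1.07), and once in parental cells, with 1 µM GSK436 (1.12). PSMB10, the remaining immunoproteasome subunit, was called in 3 parental treatments (1.04 to 1.40) and in no resistant one (−0.17 to 0.23). TAPBPL, which edits peptides on class I molecules, was called in 3 parental treatments (1.10 to 1.43), and CALR, a chaperone of the loading complex, in 1 (1.11). CANX, PDIA3, ERAP1 and ERAP2 were not called. The constitutive subunits PSMB5, PSMB6 and PSMB7, which PSMB8 to PSMB10 replace, had 0 calls in 36 tests in limma. Over all genes 13.5% of parental and 2.74% of resistant tests were called in either direction.

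The factors that bind class I and class II promoters had 5 lower and 0 higher calls in 48 parental tests and 0 in 48 resistant tests (8 of 9 genes tested), against the 5.05% and 0.684% of all tests called lower. NFYA, a subunit of the factor that binds CCAAT, was lower in 3 parental treatments (−1.01 to −1.07), and RFX5 (−1.13) and CREB1 (−1.28) with 1 µM GSK436. CIITA, the class II relative of NLRC5, was called in no treatment and had means of 23.1 in parental and 25.7 in resistant DMSO, under the pooled median. Of the 5 NF-kB genes, all tested, NFKB1 was lower in 4 parental treatments (−1.01 to −1.37) and NFKBIA higher in 1 (1.07), with 0 calls in 30 resistant tests. The shares of all genes were 13.5% of parental and 2.74% of resistant tests called. In the comparison of lines with DMSO none of these 5 lists had a call, against 3.39% of all genes.

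Outside the pathway, the genes whose 14 group means most resembled those of NLRC5 were ME3 (r of 0.97), LOC728392 (0.97) and RETREG1 (0.96). For TAP1 they were CDK2AP2 (0.96), SLC33A2 (0.95) and TRIM16 (0.95), and for HLA-E they were ARF5 (0.97), MYL6B (0.97) and DCTN2 (0.96), each out of 17992 genes compared. These are the top of a long ranking and are given as a description.

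The identity of the cells was checked by marker genes. Of 6 melanocyte lineage markers measured, the transcription factor MITF had means of 1196 in resistant and 363.5 in parental DMSO (called, 1.73 ± 0.22), and SOX10 had 2.43 in resistant and 529.2 in parental DMSO (called lower). PMEL, MLANA, TYR and S100B had DMSO means under the pooled median of 34.88 in both lines, and S100B was called higher in 3 parental treatments. Markers of other cells were summed by array. The sum of 7 leukocyte markers was 84.2 to 360.0 over resistant treatments, against 86.0 and 94.0 with DMSO, and 105.3 to 451.6 over parental treatments, against 59.5 to 167.3 with DMSO. None was at 0, PTPRC stayed at or under 53.0, CD14 did not pass the filter, and CSF1R was the only one called, in 3 parental treatments. The sum of 3 fibroblast markers was 27.3 to 369.7 over resistant treatments, against 26.6 and 45.7 with DMSO, and 145.7 to 309.4 over parental treatments, against 35.5 to 54.4 with DMSO. LUM, a matrix proteoglycan, was called in the same 10 treatments as NLRC5, and PDGFRA in 1. The sum of 3 endothelial markers was 31.7 to 163.4 over resistant treatments, against 21.5 and 30.0 with DMSO, and 16.6 to 150.3 over parental treatments, against 25.3 to 73.0 with DMSO, with no call. The part of these markers in the class I results was not tested.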

How the data were processed

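RNA of each sample was read on a one-colour Affymetrix array, 38 in all. The values are linear signal intensities as the authors deposited them. MAS5 made them, per the submitters' processing notes (version not given in the sources used here), and all arrays share a trimmed mean of 149.84 to 149.96. Per the labels' protocols, RNA was extracted with Trizol and copied to biotin-labelled cRNA. Probe sets were named by the GEO platform annotation, which is old, and 62 control probe sets were left out. Log2 of intensity plus 2.8 (the 10th percentile) was modelled in limma 3.58.1 under R 4.3.3 (14 group means, 24 residual degrees of freedom, eBayes with trend) over the 47087 probe sets with at least 2 arrays above the pooled median of 34.88. The 31 comparisons were those between lines with DMSO, treatments and DMSO, lines in the treatment change, combinations and single drugs, and doses. Groups came from the titles. The members, the 5 pathway lists (peptide trimming and loading, constitutive proteasome, interferon signalling, promoter factors, NF-kB), the marker lists and the tests were chosen with earlier results of these data known. Genes outside the members were named where called between lines or in at least 4 of 12 treatments, or to account for a small count, and as the 3 nearest to NLRC5, TAP1 and HLA-E. List members without a probe set of their own were not analysed here. On simulated arrays for parental 10 nM GSK212 against DMSO (47087 probe sets), 100 were changed by 1.5 and 100 by 2.5 on the log2 scale. The fit recovered 37% and 56% of these, with 7 false calls. In the data 11.2% of genes were called in this comparison, so these shares may not carry over. Replicate numbers did not pair the arrays: deviations of same-numbered arrays correlated with a median r of 0.0055 and of others with −0.0021. Figures were drawn with matplotlib, with tables handled in pandas under Python.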

Additional observations from a re-analysis of the deposited data

Results flagged for a closer look

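By their brightest probe sets, TAP2 and TAPBP changed differently in the lines at 1 µM GSK436 in the interaction term of the limma fit. For TAP2 (225973_at) the change in resistant cells minus that in parental cells was 2.08 ± 0.48 (adjusted p = 0.0066), from log2 changes of 0.07 and −2.01. For TAPBP it was −1.46 ± 0.41 (adjusted p = 0.0257), from −0.04 and 1.42. Both parental arrays of this treatment had an actin ratio above 20. With that ratio as a covariate the differences were 1.95 and −1.34, both still called. Ratio and treatment cannot be told apart in these parental arrays, so the covariate is no test of the ratio's part. The TAP2 difference rests on 1 parental array that read 22.4, without which it was 0.96 and no longer called. No group had the 4 arrays needed for the outlier statistic used here.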

How the results depend on the processing

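The settings were run for the 10 members only, and no call of a member changed direction in any of them. With each array centred on its median, the median log2 change of all genes moved to between −0.43 and −0.12 in parental treatments (0.17 to 0.39 as deposited) and to between −0.30 and −0.19 in resistant treatments (0.05 to 0.22), and the members called became 1 for parental 0.1 µM GSK436 (TAP2, lower), 1 for the parental higher combination, 0 for parental 10 nM and 30 nM GSK212, 1 each for the resistant lower and higher combination, 2 over the combination comparisons, 1 over the differences between lines and 0 between lines with DMSO. Quantile normalization gave 0 for parental 30 nM GSK212, 1 for the resistant lower and 2 for the higher combination, and 0 between lines. With the actin ratio as a covariate, the counts were 1 for parental 0.1 µM GSK436, 0 for the parental higher combination and for both doses of GSK212, and 1 for the resistant lower combination. Without the arrays with a ratio above 20, they were 0 for the parental lower combination, 1 for parental 10 nM GSK212, 0 for parental 30 nM and 0 for resistant 10 nM GSK212; 5 of 16 counts, those of parental GSK436 among them, could not be had. A fit of only the groups compared gave 0 for 30 nM GSK212 in either line and 1 over the differences between lines. The causes were not tested. Some settings added calls: TAP2 lower with a parental combination under centring, quantile normalization (−1.05, lower combination) and without the high-ratio arrays (−1.25, higher combination), B2M lower under centring (−1.22), and PSMB9 higher with the resistant lower combination without the high-ratio arrays (1.06). NLRC5 stayed called in every setting with both resistant combinations. The replicate number as a block changed none of the 16 counts (for example 4 for the resistant higher combination), nor did no filter or 1 probe set per gene, and a pseudocount at the 25th percentile moved none by over 1.5 times.

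Leaving out 1 array at a time, the counts ran from 0 to 1 between lines, 1 to 3 for both doses of GSK436 and for 10 nM GSK212 in parental cells, 0 to 1 for 30 nM GSK212 and the lower combination, and 1 to 2 for the higher. In resistant cells they were 0 for GSK436, 0 to 1 for 10 nM GSK212, 0 to 2 for 30 nM GSK212, 0 to 3 for the lower and 2 to 4 for the higher combination. They ran from 0 to 3 over the differences between lines, 3 to 8 over combinations and 0 to 1 over doses. Where 1 array of a group was left, it was assumed to vary like the other groups. Few arrays and signals near the pooled median limit what dim probe sets can show.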
